A study of Mus musculus with 1615 samples.

Results

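The 10 genes described here are the Notch ligands Dll4, Dll1, Jag1 and Jag2, the 4 Notch receptors Notch1 to Notch4, and the target genes Heyl and Hey2. They were taken by symbol from a table of 46517 gene identifiers counted in 1615 single cells of mouse colon. All 10 were found. Their counts were set against the cell classes of the colon wall, mouse by mouse, to see which classes held ligand RNA and which held receptor and target RNA.

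Notch signalling passes between touching cells. A Delta-like or Jagged ligand on one cell binds a Notch receptor on its neighbour, proteases release the intracellular part of the receptor, and this part joins the DNA-binding protein Rbpj in the nucleus to switch on target genes such as those of the Hes and Hey families. In vessel walls, endothelial ligands and Notch3 of mural cells (pericytes and vascular smooth muscle cells) are a well-studied pair. RNA levels show neither the protein nor its activity. Notch1, Notch3, Dll1 and Dll4 overlap annotated exons of an antisense gene and Notch2 those of a gene on its own strand, and whether counting used strand was not given in the sources used here, so a share of their counts may belong to those genes.

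Cells had been sorted into wells and sequenced by Smart-Seq2, a full-length method that counts reads, not molecules, so intervals on counts cover counting error only. They came from 11 mice, 9 labelled male and 2 female, of 5 reporter lines in which a fluorescent protein marks cells that use the Acta2, Cspg4, Pdgfra or Pdgfrb gene: ACTA2GFP:CSPG4dsRED (3 mice), CSPG4dsRED (1), PDGFRaH2bGFP (2), PDGFRbGFP (3) and ACTA2GFP (2). No mouse was treated. The tissue label was colon in every cell, while the protocol text named heart, and ages were labelled as 8 to 30 weeks; sort gates were not given in the sources used here.

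Cells were grouped by clustering without any Notch pathway gene, and a cluster was named for the class whose markers it held, with "-like" added because the names were rebuilt here. The classes held 79 lymphatic endothelium-like cells (5 mice), 358 blood endothelium-like (6), 156 pericyte-like (3), 95 vascular smooth muscle-like (2), 522 visceral smooth muscle-like (3) and 222 fibroblast-like cells (4 mice with at least 5 cells), besides small epithelium-like, immune-like and glia-like classes. The median cell had 194180 gene counts (range 45388 to 1046988). Below, the suffix is dropped, a level is CPM, the counts per 1000000 gene counts after summing the cells of 1 mouse and class, a mean is over mice ± SD, and a mouse enters with at least 5 cells of the class. The line, plate and mouse of the mural cells cannot be told apart, since pericytes, vascular muscle and visceral muscle came from the 3 ACTA2GFP:CSPG4dsRED mice alone. Vascular muscle rested on 89 cells of mouse 20GG95:3 and 6 of mouse 20GG79:1, and only mouse 20GG79:6 gave both blood endothelium and pericytes. The 89-cell sample held 4163 CPM of summed pericyte markers and 3628 CPM of vascular muscle markers, against 14050.0 and 873 CPM in pericytes of that mouse; the part of these in the results was not tested.

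Summed over each role, ligand RNA was highest in blood endothelium and receptor and target RNA in mural cells, while single members differed: Jag1 was highest in vascular muscle, Notch1 in lymphatic and Notch4 in blood endothelium, and Notch2 in immune cells. Dll4, the Delta-like ligand best known from sprouting and arterial endothelium (chr2:119325784-119335962, plus strand, GRCm38), led the ligands. It had 14.8, 134, 136, 196 and 546 CPM in lymphatic endothelium of 5 mice, and a lowest, median and highest value of 285, 341 and 519.9 CPM in blood endothelium of 6 mice. Pericytes had 133, 143 and 194 CPM, against 0.719 and 2.58 CPM in vascular muscle. Visceral muscle stayed at 0.219 to 2.48 CPM and fibroblasts at 0 to 5.23 CPM. Thus every blood endothelium value lay above every pericyte value, and the pericyte values lay above all of those in vascular muscle, visceral muscle and fibroblasts, while lymphatic endothelium overlapped both.

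Dll1, a second Delta-like ligand, averaged 40.6 ± 62.1 CPM in lymphatic endothelium (n = 5), 59.9 ± 30.0 CPM in blood endothelium (n = 6) and 0.772 ± 0.315 CPM in pericytes (n = 3). Fibroblasts split by mouse, with 75.5 and 73.8 CPM in the mice with 129 and 72 fibroblasts and 0 and 3.49 CPM in those with 5 each. Dll1 was therefore the main ligand of the well-sampled fibroblasts, at a level within the range of blood endothelium (25.1 to 112 CPM). Few cells held it: the 23 highest of 222 fibroblasts had 97.9% of the Dll1 counts. The 36 highest of 358 blood endothelium cells had 97.1%. The median cell of both classes had 0 CPM.

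Jag1, the Jagged ligand of endothelium and arterial muscle, had its highest mean in vascular muscle. It averaged 14.3 ± 26.9 CPM in lymphatic endothelium, 64.7 ± 46.0 CPM in blood endothelium, 99.1 ± 57.5 CPM in pericytes (36.7, 111 and 149.9 CPM) and 193 ± 122 CPM in vascular muscle (107 and 279.6 CPM). Visceral muscle had 33.8 ± 7.74 CPM (n = 3) and fibroblasts 17.05 ± 21.9 CPM (n = 4). Neighbouring classes in this order overlapped. Within blood endothelium Jag1 varied from 7.4 CPM in mouse 20GG79:6 to 116 CPM in 17E61:24 and 18CB109:10.

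Jag2, the other Jagged ligand, was a blood endothelium gene among the vessel classes. It had 0 to 2.77 CPM in lymphatic endothelium, against 63.1 to 309.6 CPM in blood endothelium, and at most 0.471, 3.01 and 1.09 CPM in pericytes, vascular muscle and visceral muscle. The fibroblast mean of 57.3 CPM came from 1 cell: 262 of the 274 fibroblast counts (95.6%) lay in a cell of mouse 19CB4:5, and the other 3 mice had 0 to 0.538 CPM.

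**Figure D1:**
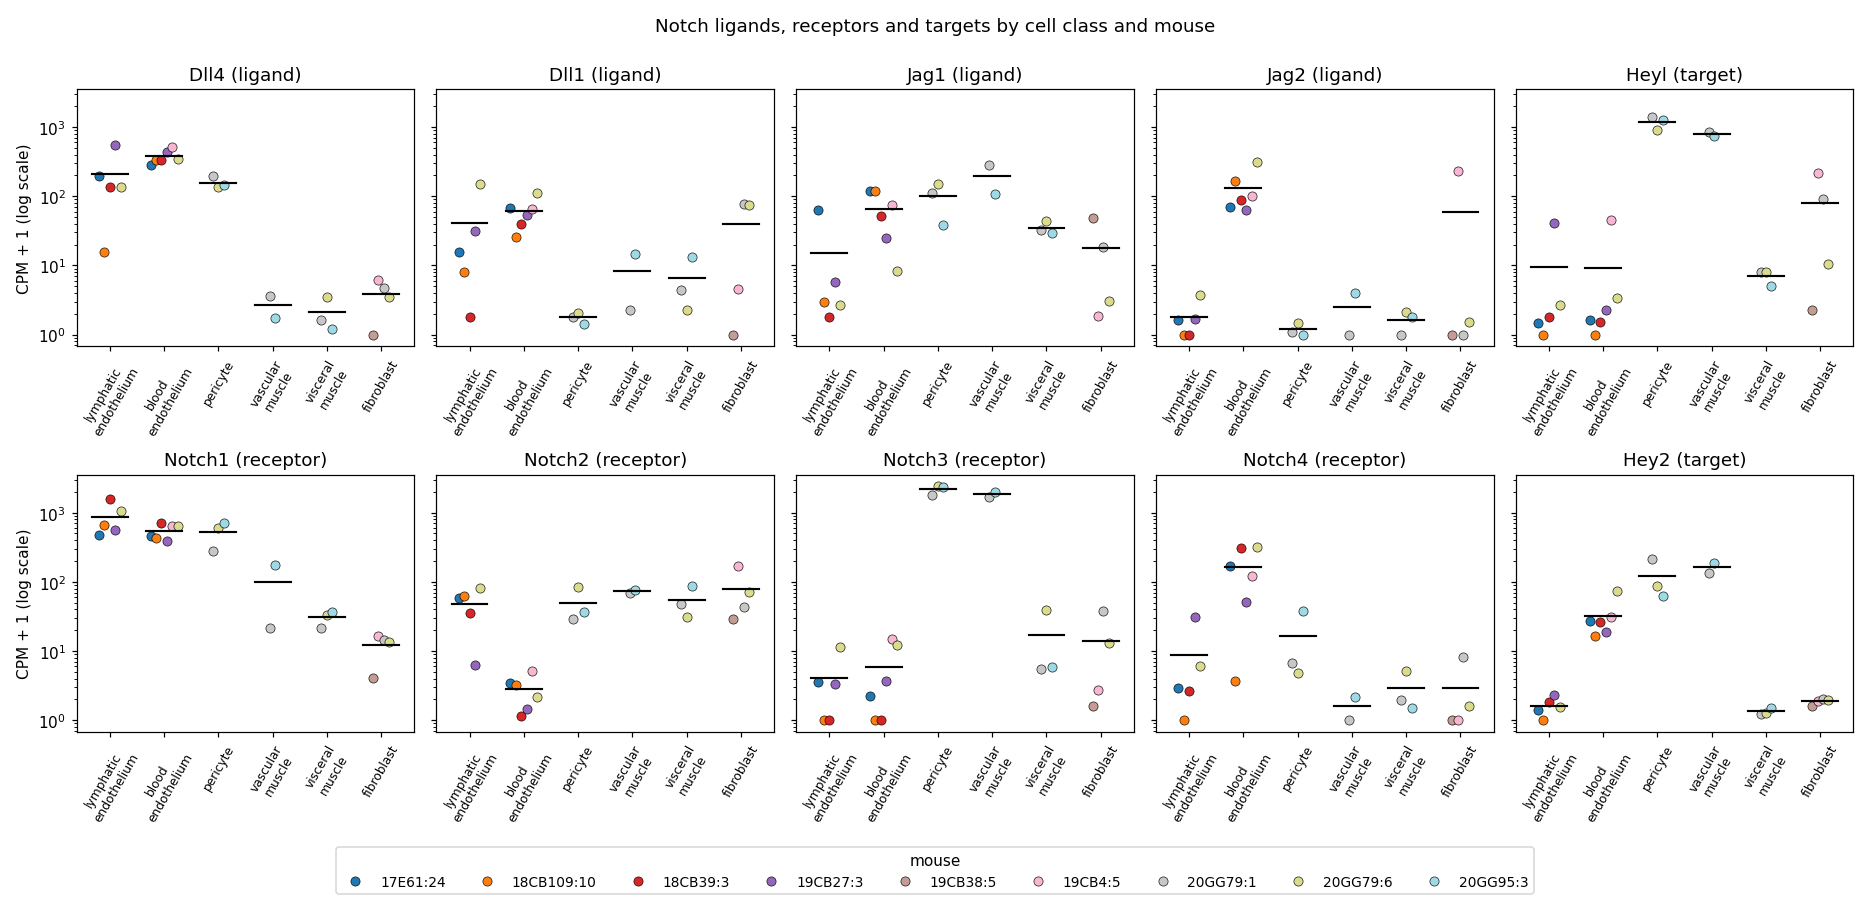
Level of each member by class and mouse, as CPM + 1 on a log axis; points are mice with at least 5 cells of the class, coloured by mouse, and bars are means; class names are shortened. Notch3 and Heyl stand in pericytes and vascular muscle, Dll4 in both endothelia and in pericytes.

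Notch1, the receptor of endothelium and many other tissues, was shared between endothelium and pericytes. It averaged 868 ± 453 CPM in lymphatic endothelium, 543 ± 134 CPM in blood endothelium, 533 ± 226 CPM in pericytes (282, 598 and 719 CPM) and 98.3 ± 109.9 CPM in vascular muscle (20.7 and 176 CPM). Glia had 451 and 553 CPM. Visceral muscle (20.5 to 35.6 CPM) lay below endothelium and pericytes and overlapped the lower vascular muscle sample, and fibroblasts (3.08 to 15.7 CPM) lay below all of these.

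Notch2, a broadly used receptor, was lowest in blood endothelium among the 6 classes. Blood endothelium had 0.135 to 4.21 CPM, against 28.4 to 82.4 CPM in pericytes, 69.1 and 74.5 CPM in vascular muscle and 27.7 to 167 CPM in fibroblasts. Lymphatic endothelium had 5.37 to 79.1 CPM, above every blood endothelium value. The highest Notch2 values were those of the immune class, 129 and 688 CPM.

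Notch3, the receptor typical of mural cells (chr17:32120820-32166852, minus strand), was the most abundant member. It had 0, 1.98 and 13.8 CPM as lowest, median and highest value in blood endothelium, 1802, 2363 and 2408 CPM in the 3 pericyte samples, and 1676 and 2008 CPM in vascular muscle. Visceral muscle of the same 3 mice had 4.43, 4.84 and 38.7 CPM, and fibroblasts 0.615 to 36.6 CPM. Pericytes and vascular muscle overlapped, and in the other named classes the highest sample, of epithelium, had 73.4 CPM.

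Notch4, the receptor most tied to endothelium, averaged 7.74 ± 12.7 CPM in lymphatic endothelium, 163 ± 131 CPM in blood endothelium and 15.5 ± 18.7 CPM in pericytes. In blood endothelium it ran from 2.69 CPM in mouse 18CB109:10 to 322 CPM in 20GG79:6. Vascular and visceral muscle had at most 1.18 and 4.2 CPM. Of the 350 Notch4 counts of pericytes, 70.6% lay in 1 cell.

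Heyl, a transcriptional repressor switched on by Notch (chr4:123233556-123249875, plus strand), followed Notch3. It had 917, 1254 and 1386 CPM in pericytes, against 745 and 838 CPM in vascular muscle, and these groups did not overlap. Visceral muscle had 4.05 to 7.08 CPM. Blood endothelium had at most 2.37 CPM in 5 of 6 mice and 44.3 CPM in mouse 19CB4:5, and fibroblasts ran from 1.23 to 213 CPM. Of the 779 Heyl counts of blood endothelium, 705 were of mouse 19CB4:5. A single cell held 61.7% of the 779, so it was a cell of this mouse. In that blood endothelium sample the summed fibroblast markers were at 1348 CPM, against at most 288 CPM in the other 5. Its lymphatic markers were at 1806 CPM, against at most 344 CPM. The part of these markers in the Heyl value was not tested.

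Hey2, a related repressor (chr10:30832359-30842801, minus strand), was present on both sides of the vessel wall. It had 0 to 1.34 CPM in lymphatic endothelium, against 15.6 to 72.9 CPM in blood endothelium. Pericytes had 61.5, 85.2 and 215 CPM and vascular muscle 133 and 189 CPM, which overlapped. Visceral muscle had 0.227, 0.288 and 0.498 CPM, below every sample of blood endothelium, pericytes and vascular muscle.

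Between genes, levels were compared per kb of exon. On that scale the 4 ligands summed to 5.85 to 149.8 CPM per kb in lymphatic endothelium, 117 to 177 in blood endothelium, 43.5 to 69.7 in pericytes, 22.2 and 49.0 in vascular muscle, 6.29 to 8.41 in visceral muscle and 8.24 to 35.2 in fibroblasts. The 4 receptors summed to 39.3 to 114 CPM per kb in lymphatic endothelium, 30.2 to 87.1 in blood endothelium, 246 to 350.5 in pericytes, 215 and 268 in vascular muscle, 6.47 to 11.1 in visceral muscle and 2.86 to 16.9 in fibroblasts. Heyl and Hey2 together reached 0 to 8.1 CPM per kb in lymphatic endothelium, 3.4 to 16.3 in blood endothelium, 198 to 318 in pericytes, 187 and 193 in vascular muscle, 0.9 to 1.45 in visceral muscle and 0.375 to 41.8 in fibroblasts. Lymphatic ligand sums overlapped those of pericytes. The ligand sum of blood endothelium lay above, and its receptor and target sums below, every mural sample.

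The leading gene of each sum changed with the class. Dll4 was the largest ligand term in all 6 blood endothelium samples (55.4 to 81.7% of the sum) and in all 3 pericyte samples (56.9 to 85.3%), while Jag1 was the largest in both vascular muscle samples (82.8 and 98.0%). Notch1 led the receptors in blood endothelium and Notch3 in mural cells, with 83.3 to 90.6% of the sum in pericytes. In the 2 well-sampled fibroblast mice Dll1 made up 82.0 and 94.2% of the ligand sum.

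**Figure D2:**
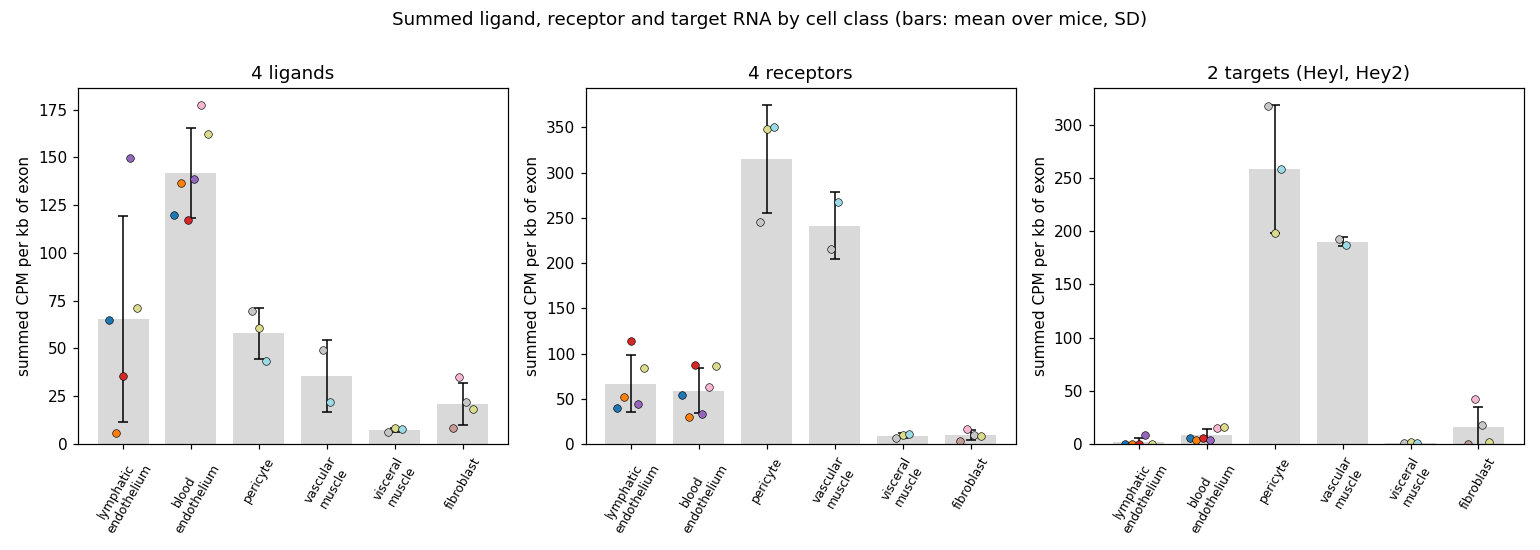
Summed CPM per kb of the 4 ligands, 4 receptors and 2 targets by class; bars are means over mice with SD, points are mice. The ligand sum is highest in blood endothelium (117 to 177) and the receptor sum in pericytes (246 to 350.5).

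Mouse 20GG79:6 allowed a view within 1 animal of 1 line. Its ligand sum was 162 CPM per kb in blood endothelium (32 cells), 60.5 in pericytes (34 cells), 8.41 in visceral muscle (66 cells) and 18.6 in fibroblasts (72 cells). Its receptor sum was 86.6 in blood endothelium, 348 in pericytes and 10.4 in visceral muscle. Dll4 had 346 CPM in its blood endothelium and 133 CPM in its pericytes, and Notch3 had 11.3 CPM in its blood endothelium and 2408 CPM in its pericytes. In these sums blood endothelium was above pericytes in ligands and below them in receptors within this animal too, a comparison with no replicate. Single members went the other way: Jag1 had 7.4 CPM in its blood endothelium and 149.9 CPM in its pericytes, and Notch4 322 CPM in its blood endothelium and 3.77 CPM in its pericytes.

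Differences between classes were tested with edgeR's quasi-likelihood test on counts summed per mouse and class, with the mouse as a block and Benjamini-Hochberg adjustment over all tested genes (a call is an adjusted p of at most 0.05). The classes were built from other genes of the same cells, and the p-values do not cover that step. They rest on the spread left between sums, moderated across genes. A fit of 2 classes over 2 shared mice had 1 residual degree of freedom, so its p-values lean on other genes. The fit over all classes had 13, and its spread is that of all classes. Blood endothelium and pericytes shared 1 mouse, and blood endothelium and vascular muscle none. These 2 contrasts were therefore read from 1 fit over the 31 sums of all classes, a choice made after the sharing was seen. In that fit the mouse terms were set through other classes too. Its fold changes can thus lie outside those between the levels of the 2 classes.

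Between blood endothelium and pericytes, 5 of 10 members were called, against 4.34% of all tested genes, and the median log2 fold change was -0.39 for the members and -0.01 for all genes. Dll1 was higher in blood endothelium (log2 fold change 9.89 ± 1.31, SE, edgeR adjusted p = 0.000101) and so was Jag2 (8.86 ± 2.25, adjusted p = 0.0292). The Dll1 fold change is larger than its mean levels of 59.9 and 0.772 CPM give, and ran from 6.41 to 11.81 over the alternatives. Notch3 (-7.42 ± 1.31, adjusted p = 0.00195), Heyl (-7.45 ± 1.08, adjusted p = 0.000191) and Notch2 (-4.83 ± 1.17, adjusted p = 0.0183) were lower. Dll4 (1.12 ± 1.01, adjusted p = 0.642), Notch4 (5.42 ± 1.66, adjusted p = 0.0689), Jag1 (-1.49 ± 1.27, adjusted p = 0.615) and Hey2 (-0.96 ± 1.08, adjusted p = 0.733) did not pass. With the 2 classes alone and no block, Dll4 (1.47 ± 0.33, edgeR adjusted p = 0.00548) and Notch4 (0.0255) were called higher in blood endothelium; Notch4 was also called without the block (0.034). Without mouse 20GG79:6 none of the 5 calls held (adjusted p from 0.238 to 1) and Jag2 turned to -0.53. That fit called 0 genes in the table, with a median of 1.55 over all fitted genes (-0.02 with the mouse). Without this mouse, the mice of the 2 classes were linked only by fibroblasts, through 5 cells of 19CB4:5. Of these 5 cells, 1 held all 262 Jag2 counts. The loss of calls in that fit therefore says little about the members. Notch2 was not called without mouse 20GG79:1 (0.0764), and Jag2 was not called without 17E61:24 (0.0649), 19CB27:3 (0.0712) or 20GG95:3 (0.143). Notch4 was called without 20GG95:3 (0.0389).

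Between blood endothelium and vascular muscle, 6 of 10 members were called, against 2.19% of all tested genes; the medians were 0.62 for the members and 0.38 for all genes. Dll4 (7.78 ± 1.49, edgeR adjusted p = 0.00326), Dll1 (7.11 ± 1.49, adjusted p = 0.00896) and Notch4 (9.35 ± 2.28, adjusted p = 0.0303) were higher in blood endothelium. Notch3 (-7.55 ± 1.44, adjusted p = 0.00656), Heyl (-6.79 ± 1.18, adjusted p = 0.00184) and Notch2 (-5.73 ± 1.46, adjusted p = 0.0391) were lower. No call of a member held without mouse 20GG79:6 (adjusted p from 0.457 to 1), and all but those of Notch3 and Heyl were lost without 20GG79:1. Without 20GG95:3, the Heyl call alone held. Notch4 was also not called without 17E61:24 (0.0692) or 19CB4:5 (0.0541), nor Notch2 without 18CB39:3 (0.0584) or 19CB4:5 (0.0746). With no count filter Notch4 (0.0514) and Notch2 (0.0929) were not called. Dll1 came to 2.64 without the mouse block (adjusted p = 0.311) and 2.39 with the 2 classes alone (0.148). Without 20GG79:6 the same 5 fibroblasts of 19CB4:5 were the link between the mice of the 2 classes. That fit called 1 gene in the table, with a median of 1.95 over all fitted genes (0.38 with the mouse). Its loss of calls therefore says little about the members. All 6 blood endothelium mice were male and both vascular muscle mice female, so sex and class cannot be told apart here.

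Between pericytes and vascular muscle, which shared 2 mice, 0 members were called, as were 0% of all genes; 5 members and 1439 genes had an unadjusted p under 0.05. DESeq2 called 365 genes. With the spread shared over all classes, 0.132% of genes were called, and Dll4 was the member among them: it was higher in pericytes in both mice (6.67 ± 1.26, edgeR adjusted p = 0.0176). In the fit of these 2 classes Dll4 differed by 7.10 ± 0.95 (adjusted p = 0.436) and Notch3 by -0.04 ± 0.16 (adjusted p = 0.924). Heyl differed by 0.52 ± 0.19 (adjusted p = 0.441), with pericytes above vascular muscle in both mice. The member medians were -0.04 in this fit (all genes 0.06) and -0.35 in the shared one (all genes 0.36).

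Vascular against visceral muscle compared the muscle of vessels with that of the gut wall in 2 shared mice. Of 10 members, 3 were called, all higher in vascular muscle, against 0.866% of all genes; the medians were 2.01 and -0.14. They were Notch3 (8.74 ± 0.30, edgeR adjusted p = 0.00297), Heyl (7.33 ± 0.42, adjusted p = 0.00754) and Hey2 (8.90 ± 0.81, adjusted p = 0.0145), each higher in both mice. Without plate 053s, 1 of the 2 plates of mouse 20GG95:3, Heyl and Hey2 had an adjusted p of 0.0528. Jag1 did not pass (2.64 ± 0.57, adjusted p = 0.144).

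Pericytes against visceral muscle, in 3 shared mice, gave 5 calls among 9 tested members, against 4.08% of all genes; the medians were 4.06 and 0.02. Notch3 (7.71 ± 0.66, edgeR adjusted p = 0.00343), Heyl (7.65 ± 0.33, adjusted p = 0.000393), Hey2 (8.34 ± 0.77, adjusted p = 0.00153), Dll4 (7.64 ± 0.74, adjusted p = 0.00242) and Notch1 (4.06 ± 0.29, adjusted p = 0.0021) were each higher in pericytes in 3 of 3 mice. Leaving out mouse 20GG79:1, 20GG79:6 or 20GG95:3 left 1 residual degree of freedom and 0 calls in the table, with the fold changes of these 5 between 3.92 and 9.36.

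Fibroblasts were compared with pericytes and with blood endothelium, over the 2 mice that each pair shared. Pericytes against fibroblasts gave 0 member calls and 0% of all genes (2650 genes and 7 members at an unadjusted p under 0.05; member median 4.90, all genes -0.04; DESeq2 called 1097 genes). Blood endothelium against fibroblasts also gave 0 member calls and 0% (1918 genes and 5 members unadjusted; medians 3.14 and 0.02; DESeq2 called 1327). With the spread shared over all classes, a fit that holds all 4 fibroblast samples, the calls came to 1.91% and 5.47% of genes, with member medians of 4.44 and 3.38 (all genes -0.03 and -0.07). In that fit Notch1, Notch3, Dll4, Heyl and Hey2 were higher and Dll1 lower in pericytes than in fibroblasts, Dll1 by -7.17 ± 1.14 (edgeR adjusted p = 0.00113). Likewise Notch1, Notch4, Dll4 and Hey2 were higher and Notch2 lower in blood endothelium than in fibroblasts, Dll4 by 7.02 ± 1.02 (adjusted p = 0.000114). Dll1 did not pass between blood endothelium and fibroblasts (2.72 ± 0.95, adjusted p = 0.1).

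Lymphatic against blood endothelium shared 5 mice and gave 4 calls among 9 tested members, against 7.18% of all genes; the medians were -1.16 and -0.16. Notch2 was higher in lymphatic endothelium in 5 of 5 mice (4.98 ± 0.82, edgeR adjusted p = 0.00208). Jag2 (-7.04 ± 1.11, adjusted p = 0.00262), Hey2 (-5.64 ± 1.3, adjusted p = 0.0283) and Notch4 (-4.38 ± 1.13, adjusted p = 0.0357) were lower in 5 of 5. Dll4 (-1.16 ± 0.55, adjusted p = 0.274) and Notch1 (0.61 ± 0.25, adjusted p = 0.195) did not pass. The calls of Notch2 and Jag2 held without each mouse in turn. Hey2 was not called without 17E61:24, 18CB39:3, 19CB27:3 or 20GG79:6 (0.0594 to 0.151), nor Notch4 without 17E61:24, 18CB39:3 or 20GG79:6 (0.127 to 0.208).

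**Figure D3:**
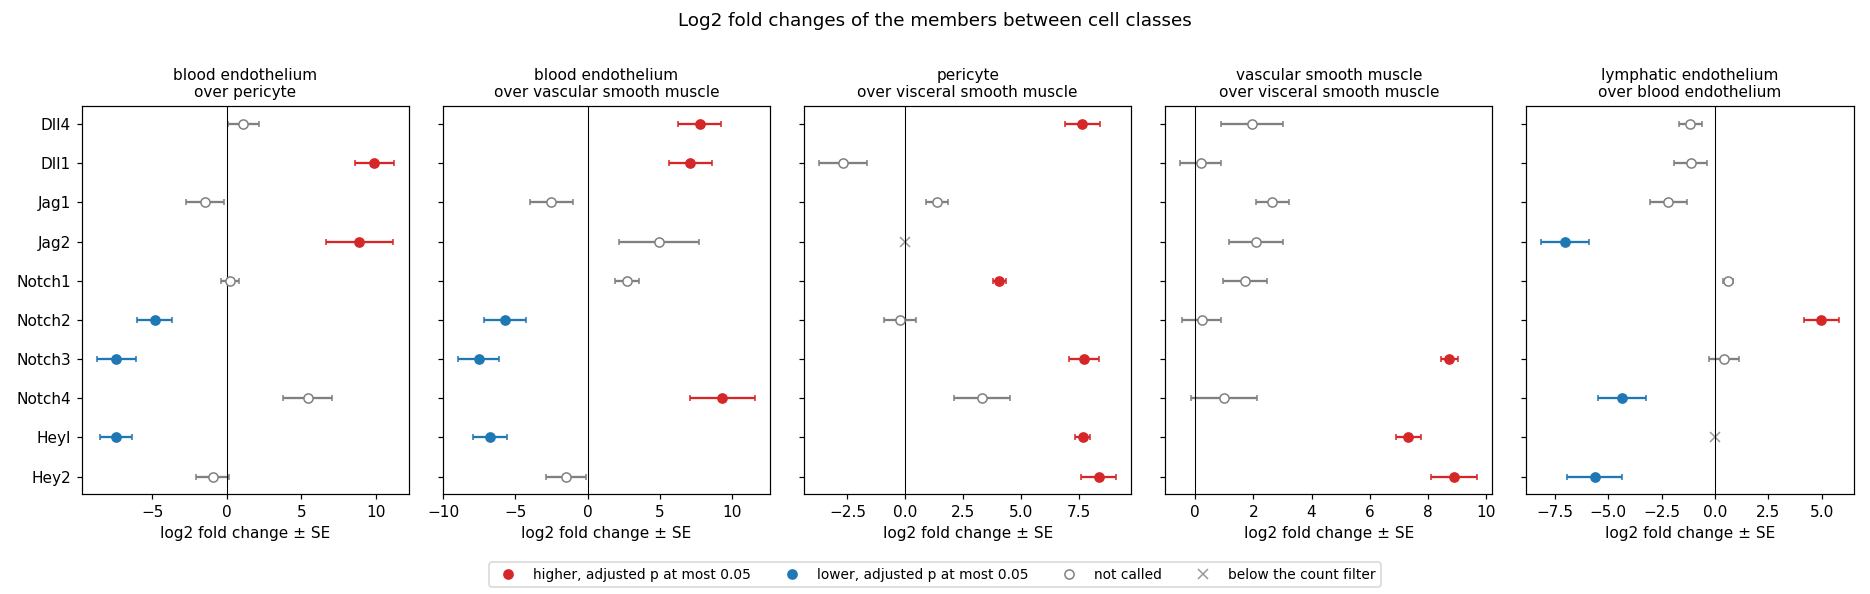
Log2 fold changes of the 10 members with standard errors in 5 contrasts of cell classes; red points were called higher, blue lower, open points not called, and crosses at 0 mark genes below the count filter. Notch3 and Heyl are called in all 4 contrasts of a mural class with endothelium or visceral muscle.

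To compare cells at equal depth, each cell was thinned to 45000 gene counts. Notch3 then had a count in 6.98% of blood endothelium cells, 96.8% of pericytes (exact 95% interval 92.7 to 99.0), 100% of vascular muscle cells (96.2 to 100) and 27.4% of visceral muscle cells (25.4, 99.4, 100 and 58.8% as deposited). Median depths were 237326, 137601, 166976 and 189069 gene counts. Visceral muscle lay above blood endothelium, but only 32 of the 358 blood endothelium cells came from a mouse that also gave visceral muscle. Blood endothelium therefore cannot set the background share for visceral muscle. As deposited, the median cell had 4.02 CPM of Notch3 in visceral muscle, 4.05 in fibroblasts, 5.19 in immune cells and 11.9 in glia. It had 0 CPM in blood endothelium, lymphatic endothelium and epithelium. Whether the visceral muscle share exceeds background was not tested.

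Receptor and target were also counted in the same cells, where the mural overlap was nearly set in advance. Notch3 was in nearly every mural cell, so the share with both could hardly differ from the share with Heyl or Hey2. The latter share was 87.8% of pericytes and 90.5% of vascular muscle cells. After thinning, Notch3 together with Heyl or Hey2 was found in 1.4% of blood endothelium cells, 85.9% of pericytes (79.4 to 90.9), 90.5% of vascular muscle cells (82.8 to 95.6) and 5.36% of visceral muscle cells. Heyl had a count in 83.3% of pericytes and 78.9% of vascular muscle cells (92.9 and 85.3% as deposited), and Hey2 in 30.8% of pericytes and 61.1% of vascular muscle cells (39.7 and 65.3%). The intervals of Hey2, 23.6 to 38.6 and 50.5 to 70.9, did not overlap, but they cover cells and not mice, and 89 of the 95 vascular muscle cells were of 1 mouse.

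Any ligand was found in 78.8% of blood endothelium cells, 51.3% of pericytes, 52.6% of vascular muscle cells, 17.4% of visceral muscle cells and 35.6% of fibroblasts after thinning. A ligand without any receptor was found in 7.54% of blood endothelium cells, against 71.2% with both. Since nearly every mural cell had Notch3, a ligand without a receptor could hardly occur there, and 0 of 156 pericytes and 0 of 95 vascular muscle cells had one.

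**Figure D4:**
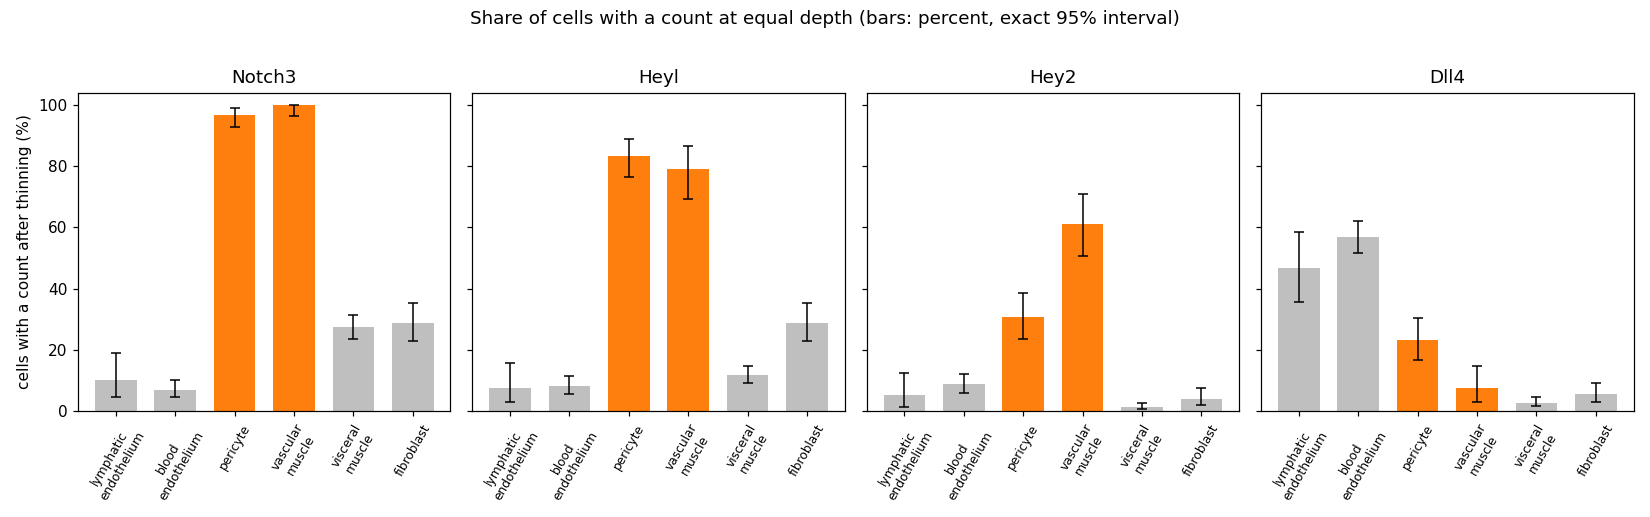
Percent of cells with a count of Notch3, Heyl, Hey2 and Dll4 after thinning to 45000 gene counts, by class, with exact 95% intervals over cells; mural classes are orange. Notch3 is near 100% in both mural classes, while Dll4 reaches 57.0% in blood endothelium and 23.1% in pericytes.

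The Dll4 RNA of pericytes was set beside endothelial markers, since it is best known from endothelium. Dll4 had a count in 57.0% of blood endothelium cells, 23.1% of pericytes (16.7 to 30.5) and 2.68% of visceral muscle cells after thinning (73.7, 36.5 and 9.77% as deposited). The summed level of Pecam1, Cdh5, Kdr, Flt1, Cldn5, Plvap and Emcn was 9109 to 16186 CPM in blood endothelium, against 123, 182 and 214 CPM in the 3 pericyte samples. Plvap made up most of the pericyte sum, with a mean of 147 CPM, and Cdh5 was at 0 in 1 of the 3 samples. Esam was left out after its level was seen to be high in mural cells too. Dll4 equalled 2.38 to 3.74% of that sum in blood endothelium and 78.6, 90.9 and 108% in pericytes.

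Pericytes with and without Dll4 had like summed marker levels, while single markers differed. Kdr had a count in 4 of 36 with Dll4 and 6 of 120 without, a larger share of those with it. Pecam1 had a count in 16 and 56 of them. The part of endothelial RNA in the Dll4 counts was not tested. Of 36 pericytes with Dll4 after thinning, 1 had a count of Cdh5, the adhesion molecule of endothelial junctions, and 4 had at least 3 of the 7 markers. Of 120 pericytes without Dll4, 3 had Cdh5 and 10 had at least 3 markers. The summed marker level was 167 CPM in pericytes with Dll4 and 179 CPM in those without. Dll4 counts were concentrated: the 36 highest of 358 blood endothelium cells held 56.6% of them, and the 16 highest of 156 pericytes held 93.2%.

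**Figure D5:**
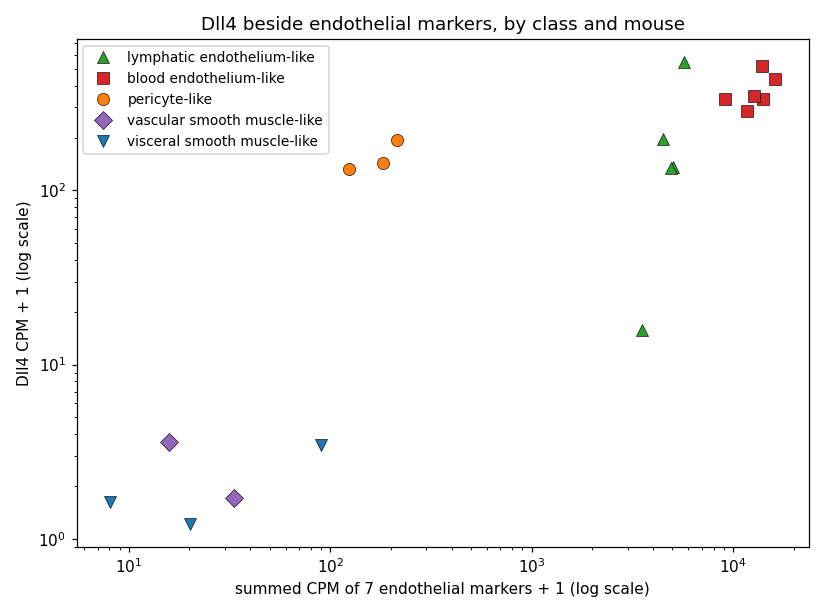
Dll4 level against the summed level of 7 endothelial markers, both as CPM + 1 on log axes; each point is a class in 1 mouse. Pericytes have Dll4 at 133 to 194 CPM with a marker sum of 123 to 214 CPM, while blood endothelium has 285 to 519.9 CPM with 9109 to 16186 CPM.

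Of 44 other Notch pathway genes, 41 were tested between blood endothelium and pericytes and 2 were higher and 1 lower (median log2 fold change 0.34, all genes -0.01). Of all tested genes, 4.34% were called in this contrast. Egfl7, a secreted endothelial factor that binds Notch, averaged 1864 CPM in blood endothelium and 9.65 CPM in pericytes (6.43 ± 1.13, edgeR adjusted p = 0.0015). Numb, which dampens Notch by endocytosis, was also higher (4.8 ± 1.18, adjusted p = 0.0218). Dtx4, a Deltex ubiquitin ligase, averaged 0.842 CPM in blood endothelium and 105.4 CPM in pericytes (-6.71 ± 0.97, adjusted p = 0.000191). Between blood endothelium and vascular muscle 3 of 41 were higher and 0 lower, against 2.19% of all tested genes called. The median was 1.11 (all genes 0.38), and 11 had an unadjusted edgeR p under 0.05. The 3 called were Egfl7, the sheddase Adam10 and the microfibril protein Mfap2.

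Mural cells differed from visceral muscle in a further target. Nrarp, a Notch-induced feedback inhibitor, averaged 133 CPM in vascular muscle and 0.235 CPM in visceral muscle (10.15 ± 0.89, edgeR adjusted p = 0.00826), and 111 CPM in pericytes (8.77 ± 0.80 over visceral muscle, adjusted p = 0.00221). In all, 1 gene was higher and 1 lower of 38 in vascular muscle (median 0.10, all genes -0.14). In pericytes 4 were higher and 1 lower of 37 (median 0.42, all genes 0.02). Of all tested genes, 0.866% were called for vascular muscle and 4.08% for pericytes. Hey1, the third Hey gene, averaged 87.7 CPM in pericytes and 2.43 CPM in visceral muscle (5.25 ± 0.69, adjusted p = 0.0147). Mfap5, a microfibril protein that binds Notch ligands, was lower in both mural classes, at 5.99 CPM in vascular muscle, 59.7 CPM in pericytes and 452 CPM in visceral muscle. None of the pericyte calls held when 1 of the 3 mice was left out.

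The 2 endothelia differed in Dtx1, another Deltex gene, which averaged 590.0 CPM in lymphatic and 10.6 CPM in blood endothelium (8.01 ± 0.45, edgeR adjusted p = 5.61e-08). Of all tested genes, 7.18% were called in this contrast. Dtx1 was the 1 higher of 35 tested pathway genes, and 4 were lower (median -0.49, all genes -0.16). Among these, Mfng, a glycosyltransferase that modifies Notch receptors, had 1.02 CPM in lymphatic and 82.8 CPM in blood endothelium (-6.70 ± 1.24, adjusted p = 0.00985).

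Between pericytes and vascular muscle, pericytes and fibroblasts, or blood endothelium and fibroblasts, 0 of the 36 to 38 tested pathway genes were called by edgeR in the fit of the 2 classes, with 8 or 9 at an unadjusted p under 0.05. With the spread shared over all classes, 2 of 41 were higher in pericytes than in fibroblasts, against 1.91% of all tested genes called. They were Nrarp (6.40 ± 1.09, edgeR adjusted p = 0.00114) and Ccn3, a secreted protein reported to bind Notch1 (3.94 ± 0.93, adjusted p = 0.0263). In blood endothelium 5 of 41 were higher and 1 lower than in fibroblasts, against 5.47% of all tested genes called. Among the higher ones was Mfng (9.59 ± 1.80, edgeR adjusted p = 0.00466).

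Genes with the pattern most like a member's were ranked by Pearson correlation of log2(CPM + 1) over the 31 sums, among 9378 genes; the sums share mice and plates, and some of these genes helped to form the clusters. Nearest to Notch3 were Rgs4 (r = 0.95), Ephx3 (0.94) and Olfr78 (0.93). Nearest to Dll4 were Hecw2 (0.92), Adgrf5 (0.91) and Tie1 (0.89), and among the nearest to Heyl were Ndufa4l2 (0.90) and Ptgir (0.86). Hey2 came closest to Kcna5 (0.84), Bcam (0.81) and Meox2 (0.80), and Jag1 to Ttll7 (0.76), Gjc1 (0.73) and Igf2 (0.72). Rgs4, for one, averaged 2.17 CPM in blood endothelium, 1232 CPM in pericytes and 1861 CPM in vascular muscle.

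The promoters of the target Hey2, the receptor Notch3 and the ligand Dll4 are shown as 1 example each of a target, a receptor and a ligand; of these 3, Notch3 was the one called between blood endothelium and both mural classes. Each runs from 250 bases before to 50 bases after the start site on the gene's strand, from RefSeq on GRCm38.p6; capitals mark TGGGAA or its reverse complement TTCCCA, the core letters bound by Rbpj. Hey2 lies at chr10:30842734-30843033 (minus strand), Notch3 at chr17:32166841-32167140 (minus) and Dll4 at chr2:119325534-119325833 (plus).
Hey2: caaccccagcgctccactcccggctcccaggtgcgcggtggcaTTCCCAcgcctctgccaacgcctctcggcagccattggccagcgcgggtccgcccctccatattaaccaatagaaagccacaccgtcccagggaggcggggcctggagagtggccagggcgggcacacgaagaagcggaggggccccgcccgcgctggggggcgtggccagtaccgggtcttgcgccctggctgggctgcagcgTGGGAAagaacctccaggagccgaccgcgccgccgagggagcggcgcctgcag
Notch3: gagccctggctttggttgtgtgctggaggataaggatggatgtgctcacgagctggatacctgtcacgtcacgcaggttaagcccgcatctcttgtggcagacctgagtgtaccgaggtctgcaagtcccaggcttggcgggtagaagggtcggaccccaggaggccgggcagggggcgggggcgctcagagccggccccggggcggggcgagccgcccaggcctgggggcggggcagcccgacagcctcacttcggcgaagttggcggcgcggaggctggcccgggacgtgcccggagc
Dll4: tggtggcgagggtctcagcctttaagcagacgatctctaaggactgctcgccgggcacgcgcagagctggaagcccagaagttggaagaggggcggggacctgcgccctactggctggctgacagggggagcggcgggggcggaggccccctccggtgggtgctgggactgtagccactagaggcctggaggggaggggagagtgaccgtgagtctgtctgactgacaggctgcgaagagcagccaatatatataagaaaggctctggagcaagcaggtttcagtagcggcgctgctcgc
Hey2 held the letters at 2 places, 207 and 3 bases before the start site, once on each strand. Of 10 member promoters, covering 9 of the 10 symbols, Hey2's was the one with a match. The symbol without a promoter entry was Heyl, so Hey2 was the only target searched. Of 32851 promoters in the table, 25.6% held at least 1 match and 3.79% held 2 or more. A match describes letters and not binding.

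Within blood endothelium the members were set against an arterial range. Cells with counts of at least 3 of 6 arterial markers were compared with cells that had 1, by an exact sign-flip test over 6 mice; the split was chosen after the data were seen, and 6 mice cannot give a two-sided p below 0.03125. Jag1 was higher with at least 3 markers in 6 of 6 mice, with medians of 103 and 5.95 CPM (mean log2 difference 3.78 ± 2.23, SD, exact p = 0.03125, adjusted over 10 genes 0.208). Dll4 was higher in 5 of 6 mice, with medians of 529.8 and 238 CPM (1.04 ± 0.73, exact p = 0.0625, adjusted 0.208). The receptors Notch1 (0.94 ± 0.90, exact p = 0.0625, adjusted 0.208) and Notch4 (1.80 ± 2.35, exact p = 0.125, adjusted 0.312) were also higher in 5 of 6 mice. The remaining members were higher in 2 to 4 of 6. Cells with other numbers of arterial markers entered neither group. With 10 genes tested over 6 mice, a few genes at the smallest p could not pass the adjustment. A call was nearly out of reach in advance, so the lack of one says little.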

How the data were processed

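The deposited table holds whole-number read counts per gene and cell, which the authors made; per the submitters' processing notes, tools included bcl2fastq, Bowtie, Bowtie2, Subread and featureCounts, with the builds GRCm38 and mm10, with no role or order stated. The 92 spike-ins (1.88% of counts) were left out, and 0 of 1615 cells fell under 20000 counts or 1000 genes. Symbols were matched for 46005 of 46517 identifiers.

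Cells were clustered with scanpy 1.11.5 (2000 variable genes, 20 components, 15 neighbours, Leiden 1.0), with Notch pathway genes left out. A cluster needed 3 detected markers for a name, and no other class could have more markers among its top genes. By the second rule 1 cluster of 53 cells stayed unnamed. It had 7 of 8 markers of its best class detected, but its top genes held 0 of them and 1 of another class. At Leiden 0.5 no cluster stayed unnamed, and pericytes numbered 186 cells (156 at 1.0). No doublet caller was run: 33 cells that held markers of another class were left out in an alternative. Counts were summed per mouse and class (at least 5 cells) and tested with edgeR 4.0.16 (quasi-likelihood, TMM, filterByExpr, mouse as block); DESeq2 1.42.0 was an alternative. Samples of the same mouse share its label, which gives the pairing. The scripts were checked on simulated counts. The text names all members, and of the pathway list up to 3 called genes per direction with at least 20 CPM. For blood endothelium against either mural class, the fit shared over 31 sums replaced the values without a test that the design had set. Members, lists, cluster rules, the mixed-cell rule, the promoter motif and this choice were made with results of these data known. One gene that the likeness rule names is not reported here.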

Additional observations from a re-analysis of the deposited data

Results flagged for a closer look

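Of 40 groups of 4 to 6 mice tested for a value far from the rest, 13 were flagged, each at its highest value. The test flags about 1 in 20 by chance if values are normally distributed. Skewed CPM values need not be, so the 13 cannot be set against that rate. In blood endothelium, Hey2 stood at 72.9 CPM in mouse 20GG79:6 (next 30.2) and Heyl at 44.3 CPM in mouse 19CB4:5 (next 2.37), mostly from 1 cell. In lymphatic endothelium the highest mouse stood apart for 6 members. Dll1 had 150.0 CPM, Jag2 2.77 CPM and Notch3 10.5 CPM in mouse 20GG79:6, whose 5 lymphatic cells are among the fewest. Heyl had 39.9 CPM and Notch4 30.2 CPM in mouse 19CB27:3, and Jag1 had 62.4 CPM in mouse 17E61:24. Among fibroblasts, Jag2 had 229 CPM in mouse 19CB4:5, from 1 cell, and Notch4 7.19 CPM in mouse 20GG79:1. In epithelium, Dll1 had 54.8 CPM in 20GG79:6, Dll4 13.8 CPM in 19CB27:3 and Jag1 12.1 CPM in 17E61:24.

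The unnamed cluster, 53 cells of mouse 20GG95:3 that entered no comparison at Leiden 1.0, held 6 members above the level of 3 counts (0.422 CPM). They were Notch3 at 1240 CPM, Heyl at 241 CPM, Notch1 at 83.9 CPM, Jag1 at 49.5 CPM, Notch2 at 38.8 CPM and Hey2 at 31.2 CPM.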

How the results depend on the processing

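Of the members' log2 fold changes recomputed under an alternative, 775 kept direction and side of the threshold or, with no test, stayed within their error. Besides, 46 gained and 56 lost a call, 29 had no test and moved by more than their error, and 18 changed sign with a test. Further sign changes came from leaving out 1 of 2 mice, which leaves no test. Some of these lie among the 775, such as Notch3 between pericytes and vascular muscle (-0.04 to 0.05). Causes were not tested unless given. Without the replicate block (same mice), calls numbered 2673 between blood endothelium and pericytes (790 with it), 1489 between blood endothelium and vascular muscle (398), 63 between pericytes and vascular muscle (0), 610 between vascular and visceral muscle (128), 861 between pericytes and visceral muscle (566), 195 between pericytes and fibroblasts (0) and 446 between blood endothelium and fibroblasts (0). In these 7 contrasts, in the same order, DESeq2 was planned and not run for the first 2 and gave 365, 925, 1437, 1097 and 1327 calls for the rest, and 1392 between lymphatic and blood endothelium (756 with edgeR). With the 2 classes alone the first 2 gave 2261 and 1429. With no filter on low counts they gave 483 and 240, and pericytes against visceral muscle 256. With the spread shared, pericytes against vascular muscle gave 24, vascular against visceral muscle 392, pericytes against fibroblasts 348, blood endothelium against fibroblasts 995 and lymphatic against blood endothelium 1281. Vascular against visceral muscle gave 5 calls without plate 053s and 82 without the other plate of mouse 20GG95:3.

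Leaving out each mouse gave 0 to 810 calls between blood endothelium and pericytes, 1 to 424 between blood endothelium and vascular muscle (the lowest of both without 20GG79:6), 0 between pericytes and visceral muscle and 265 to 556 between the 2 endothelia; the other contrasts then have 1 mouse and no test. RLE scaling moved the higher and lower calls to 174 and 249 between blood endothelium and vascular muscle (215 and 183 with TMM) and 360 and 403 between the endothelia (282 and 474), and the median over all fitted genes, those with no test included, between blood endothelium and pericytes to -0.27 (-0.02), between blood endothelium and vascular muscle to 0.06 (0.38) and between the endothelia to 0.06 (-0.17).

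The sign changes with a test concerned members with no call, except Jag2 between blood endothelium and pericytes (leave-one-out range -0.53 to 9.83). In that contrast Notch1 turned to -0.087 with RLE and ran from -0.15 to 1.10 over left-out mice (-0.02 without 20GG95:3), and Jag1 from -2.44 to 3.95. Against vascular muscle, Jag1 ran from -3.52 to 2.39 and Jag2 from -4.94 to 6.33. In these 2 contrasts the signs of Jag1 and Jag2 changed only without 20GG79:6, where 5 fibroblasts were the link between the mice. Notch3 between pericytes and vascular muscle became 0.28 without that other plate. Between vascular and visceral muscle, Notch4 became -0.74 with DESeq2 and -1.52 with shared spread, and Dll1 -0.34 with DESeq2 and -4.49 without the other plate; without mouse 20GG95:3 they were -7.60 and -1.27. Hey2 between pericytes and vascular muscle was 0.35 without 20GG95:3 (-0.74 with it). Notch2 between pericytes and visceral muscle became 0.037 without the other plate and ran from -1.14 to 0.30 over left-out mice. Notch3 between blood endothelium and fibroblasts became -0.70 with shared spread and -0.41 at Leiden 0.5, and between the endothelia it ran from -0.016 (without 17E61:24) to 0.70. The class with the highest level was the reported one for 10 of 10 members at Leiden 0.5, with means over cells and without mixed cells. Samples of 5 or 6 cells limit vascular muscle, fibroblasts and lymphatic endothelium most.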
